A study of Mus musculus with 11 samples.

Results

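The genes described here are those of the mouse mitochondrial genome, chosen as every row of the count tables whose gene symbol begins with mt-. There were 35 of them among 33188 genes: 13 messenger RNA genes, 2 ribosomal RNA genes (mt-Rnr1 and mt-Rnr2) and 20 transfer RNA genes. The GENCODE annotation of GRCm38 places 22 transfer RNA genes on the mitochondrial chromosome (chrM), and mt-Tr and mt-Ts2 were not analysed here. Poly-A selected RNA of whole P5 testes was sequenced in 11 libraries, from wild-type mice (WT, n = 2), Dnmt3C KO mice (n = 3), Nrf1 cKO mice (n = 3) and mice with both changes (dKO, n = 3). The labels write the mutant genotypes as Dnmt3CKO/KO, Nrf1KO/KO and their combination, all on a C57Bl6/J background per the study's methods. The Dnmt3C allele is constitutive, whereas Nrf1 was deleted from a floxed allele by a Ddx4-Cre driver, which acts in germ cells. In the study's breeding scheme the other Nrf1 allele of the Nrf1 cKO and dKO mice was a KO allele, so that their somatic cells carried 1 intact copy of Nrf1. The titles of the samples name germ cells, whereas their tissue and cell type labels and protocol give whole testes with germ and somatic cells, which is the material described here. Each library held between 26063590 and 39365841 counts, with a median of 33862160. Counts over the whole gene of Nrf1 were 58.9 and 57.8 CPM (counts scaled to a library total of 1000000) in WT, 46.1, 55.5 and 50.6 CPM in Dnmt3C KO, 54.8, 51.3 and 57.4 CPM in Nrf1 cKO and 58.3, 60.5 and 58.8 CPM in dKO. No drop was called where Nrf1 was deleted, with a log2 fold change of 0.09 ± 0.08 for the averaged Nrf1 effect (SE, adjusted p = 0.753 by edgeR). Those of Dnmt3c lay between 3.10 and 4.91 CPM in all libraries and were not called either. These counts do not check the labels, since somatic cells carry an intact Nrf1 allele and a mutant transcript can still be counted.

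Dnmt3C is a DNA methyltransferase that silences young retrotransposons in male germ cells, and NRF1 is a transcription factor first described as a regulator of nuclear genes for mitochondrial proteins, including Tfam. The mitochondrial genome is a small circle transcribed from both strands as long precursors, which are cut mainly at the transfer RNAs into single ribosomal, messenger and transfer RNAs. Its messenger RNAs encode core subunits of respiratory complexes I (mt-Nd1 to mt-Nd6 and mt-Nd4l), III (mt-Cytb) and IV (mt-Co1 to mt-Co3) and of the ATP synthase (mt-Atp6 and mt-Atp8), and all other subunits come from nuclear genes. The strand called heavy by convention supplies the template for most genes, listed as plus in the annotation, while mt-Nd6 and a set of transfer RNAs lie on the minus strand and are called light-strand genes below. Most mitochondrial messenger RNAs carry a short poly-A tail, which poly-A selection retains, and transfer RNAs end in CCA without such a tail.

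The ends of the messenger RNA genes are shown because their last bases bear on poly-A selection. In mt-Co3 (chrM:8607-9390, plus strand), mt-Nd4 (chrM:10167-11544, plus strand) and mt-Cytb (chrM:14145-15288, plus strand) the annotated gene stops after the T of the stop codon, and 2 bases are missing that the poly-A tail supplies. In mt-Co1 (chrM:5328-6872, plus strand) the stop codon is complete. The last 30 bases of each, from the GENCODE transcripts on GRCm38, read as follows, with the bases of the stop codon in capitals.
mt-Co3: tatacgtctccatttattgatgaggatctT
mt-Nd4: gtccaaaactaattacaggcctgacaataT
mt-Cytb: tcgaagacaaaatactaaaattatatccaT
mt-Co1: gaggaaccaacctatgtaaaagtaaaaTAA
The 2 transfer RNA genes that held most transfer RNA counts are shown whole. The gene mt-Tl1 (chrM:2676-2750, plus strand) lies between mt-Rnr2 and mt-Nd1, and mt-Ts1 (chrM:6870-6938, minus strand) overlaps the end of mt-Co1 on the opposite strand. The 3 bases of mt-Ts1 that face mt-Co1 are in capitals, and they face the stop codon of mt-Co1 printed above.
mt-Tl1: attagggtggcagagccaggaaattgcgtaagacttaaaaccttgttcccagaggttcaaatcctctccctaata
mt-Ts1: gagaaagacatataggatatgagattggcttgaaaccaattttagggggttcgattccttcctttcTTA

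The mitochondrial genes took between 2.13% and 3.99% of all counts of a library. In WT the share was 2.27% in replicate 1 and 3.97% in replicate 2. In Dnmt3C KO it was 2.93%, 2.83% and 3.60% in replicates 1 to 3. In Nrf1 cKO it was 2.77%, 2.33% and 2.48%, and in dKO it was 3.12%, 2.13% and 3.99%. Both WT libraries together spanned the values of all Dnmt3C KO and Nrf1 cKO libraries, and the dKO libraries held both the lowest and the highest share of the series. The Nrf1 cKO libraries all lay below the Dnmt3C KO libraries. WT libraries had a mean share of 3.12% ± 1.20 (SD, n = 2). The means of the mutants were 3.12% ± 0.422 for Dnmt3C KO, 2.53% ± 0.219 for Nrf1 cKO and 3.08% ± 0.931 for dKO (SD, n = 3 each). The 95% binomial interval (Wilson) of a single library's share was at most 0.0133 percentage points wide, so counting error was small against the spread between libraries of a genotype. These intervals cover counting error only. In whole testis, fewer cells of a type and less RNA per cell cannot be told apart in such a share.

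**Figure D1:**
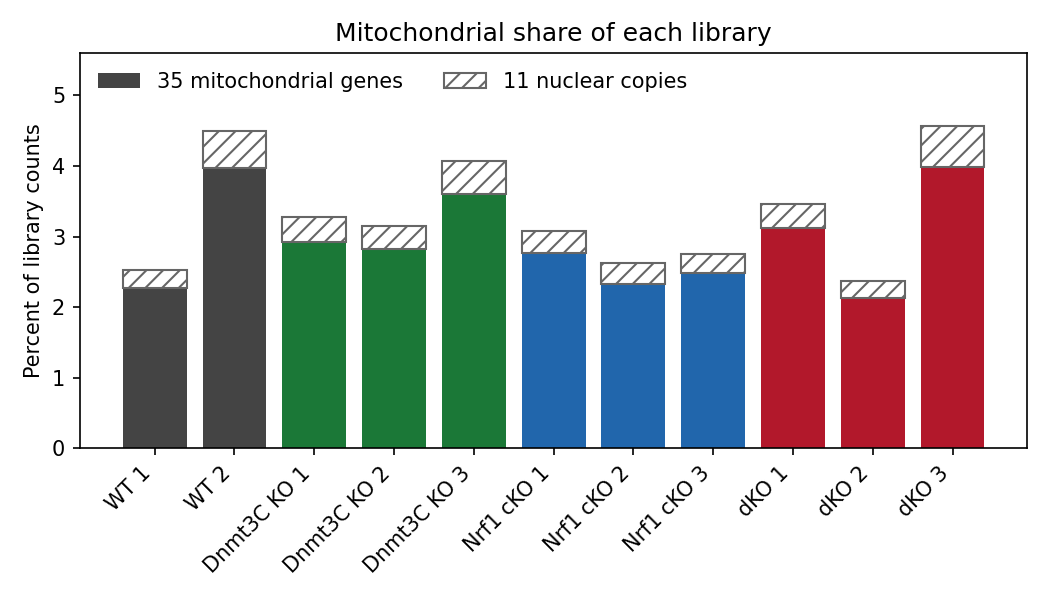
Share of library counts (percent) assigned to the 35 mitochondrial genes (solid bars) and to 11 annotated nuclear copies of mitochondrial DNA (hatched) in each of the 11 libraries, coloured by genotype. The WT libraries stand at 2.27% and 3.97%, and the dKO libraries range from 2.13% to 3.99%.

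The 13 messenger RNA genes held 98.3% of the mitochondrial counts on average, and between 97.4% and 98.8% in single libraries. The ribosomal RNA genes held 1.53% on average and the transfer RNA genes 0.201%. Within the messenger RNAs the division between complexes was steadier than the total. The 3 complex IV genes held between 46.9% and 53.6% of the mitochondrial counts in the 11 libraries, the 7 complex I genes between 29.4% and 35.7%, mt-Cytb of complex III between 12.4% and 15.2%, and the ATP synthase genes between 2.29% and 3.62%. These shares leave out counts assigned to the nuclear copies described below. The mean level of mt-Atp6 was 735 CPM without its copy and 2022 CPM with it, so the ATP synthase share depends on this choice.

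Per length, the complex IV gene mt-Co1, whose protein carries out the reduction of oxygen, had the highest level, with a mean of 7687 CPM per kb over the 11 libraries. In CPM, which are not divided by length, mt-Co1 stood at 9351 and 14960 in WT replicates 1 and 2 and at 11970, 11360 and 14050 in the Dnmt3C KO libraries. It stood at 11060, 8981 and 10720 in the Nrf1 cKO libraries and at 12290, 8632 and 17280 in the dKO libraries. As for the share, the Nrf1 cKO libraries lay below all Dnmt3C KO libraries and the dKO libraries reached to both sides of them. The lower WT library lay above Nrf1 cKO replicate 2 and the higher one above all Dnmt3C KO libraries. The other complex IV genes, mt-Co2 and mt-Co3, had means of 2142 and 1742 CPM per kb.

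By the counts assigned to the genes themselves, next in level were mt-Nd1 of complex I, with a mean of 3519 CPM per kb, and mt-Cytb, the cytochrome b of complex III, with 3501 CPM per kb. Their ranges over the libraries, from 2325 to 5466 and from 2519 to 4436 CPM per kb, overlapped almost whole. Among the remaining complex I genes the means per length fell from mt-Nd4 (1685 CPM per kb) over mt-Nd2 (1434), mt-Nd5 (1154), mt-Nd3 (257) and mt-Nd4l (145) to mt-Nd6 (31.9). The ATP synthase genes mt-Atp6 and mt-Atp8 had means of 1080 and 421 CPM per kb, and 43 bases of mt-Atp8 overlap mt-Atp6 on the same strand, so reads there belong to either. For mt-Atp6, mt-Co2, mt-Co3, mt-Nd3 and mt-Nd4l a large part of the counts is assigned to nuclear copies, described below, by amounts that differ between the genes. With its copies mt-Co2 had a mean of 2633 CPM over 684 bases, against 3368 CPM over 957 bases for mt-Nd1. Per length mt-Co2 then lay above mt-Nd1 and mt-Cytb, so the order given here holds without the copies only.

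Between libraries, 10 of the 13 messenger RNA genes varied by at most 3.32-fold, and mt-Cytb the least, by 1.76-fold. The exceptions were mt-Nd6, which varied by 10.2-fold, mt-Atp8 by 5.42-fold and mt-Nd4l by 3.93-fold. The gene mt-Atp8, which encodes a small subunit of the membrane part of the ATP synthase, stood at 38.0 and 206 CPM in WT replicates 1 and 2 and at 57.5, 51.8 and 171 CPM in the Dnmt3C KO libraries. It stood at 114, 102 and 51.4 CPM in the Nrf1 cKO libraries and at 49.2, 39.6 and 64.6 CPM in the dKO libraries. WT replicate 2, Dnmt3C KO replicate 3 and Nrf1 cKO replicates 1 and 2 were high, and all other libraries lay at 64.6 CPM or below. Set against mt-Co1 of the same library, these 4 libraries held between 10.3 and 13.8 mt-Atp8 counts per 1000 mt-Co1 counts, and the other 7 held between 3.74 and 4.803. High and low libraries were found within WT, Dnmt3C KO and Nrf1 cKO, whereas all dKO libraries were low.

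**Figure D2:**
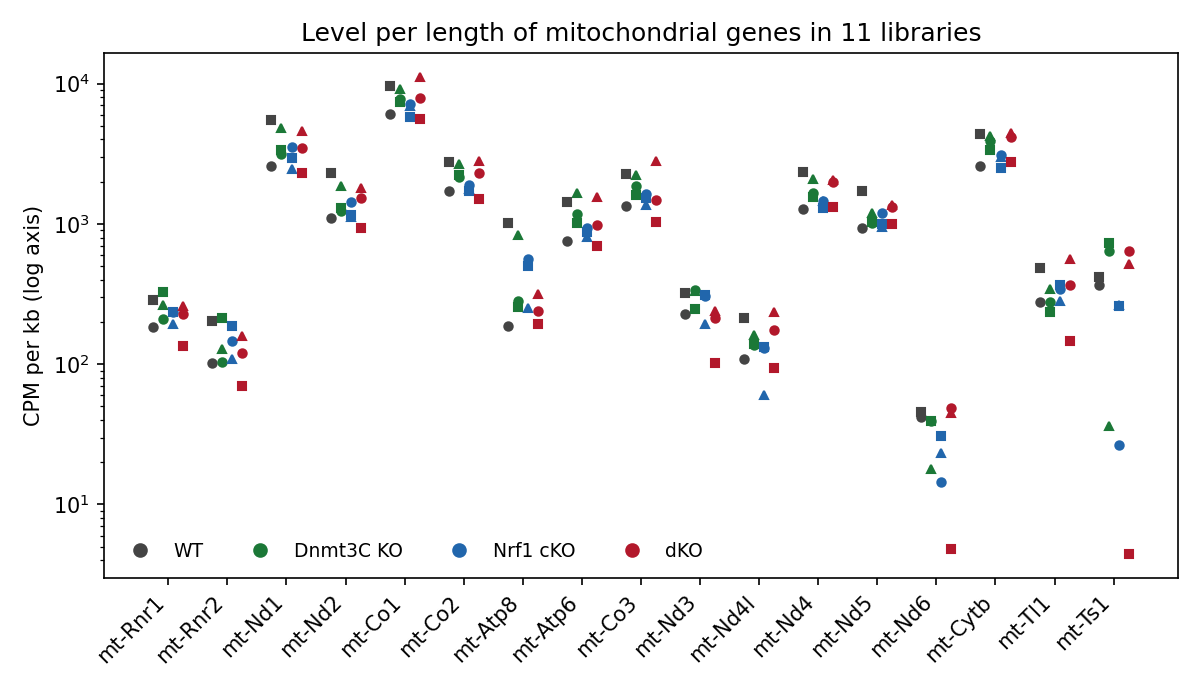
Level per gene length (CPM per kb, log axis) of the 2 ribosomal and 13 messenger RNA genes and of mt-Tl1 and mt-Ts1 in the 11 libraries, with genotypes in colour and replicates 1, 2 and 3 as circles, squares and triangles. The gene mt-Co1 is highest in every library, and mt-Nd6 and mt-Ts1 show the widest spread.

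The ribosomal RNAs are the most abundant mitochondrial RNAs in a cell, and in these poly-A selected libraries their genes had lower levels per length than most messenger RNA genes. The small-subunit gene mt-Rnr1 (chrM:70-1024) had a mean of 232 CPM per kb and the large-subunit gene mt-Rnr2 (chrM:1094-2675) a mean of 140 CPM per kb. In CPM, mt-Rnr1 stood at 177 and 273 in WT, at 199, 311 and 252 in Dnmt3C KO, at 227, 224 and 185 in Nrf1 cKO and at 218, 128 and 249 in dKO. The level of mt-Rnr2 was 162 and 323 CPM in WT, 165, 339 and 203 CPM in Dnmt3C KO, 231, 296 and 172 CPM in Nrf1 cKO and 189, 110 and 253 CPM in dKO. The genotypes overlapped for both genes. Together they reached between 27.6 and 57.9 counts per 1000 mt-Co1 counts, with the highest values in Nrf1 cKO replicate 2 and Dnmt3C KO replicate 2.

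Of the transfer RNA genes, mt-Ts1 (serine) held 41.6% of all transfer RNA counts, mt-Tl1 (leucine) 41.5% and mt-Tw (tryptophan) 8.03%. The other 17 shared the rest, and 10 of the 20 had no count in at least 1 library. With 29 counts or fewer over all 11 libraries in each of 8 genes, differences between genotypes in those genes were not detectable at this depth. The plus-strand gene mt-Tl1 ranged from 10.9 to 42.4 CPM, lowest in dKO replicate 2 and highest in dKO replicate 3, the libraries with the lowest and highest mitochondrial share.

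The minus-strand gene mt-Ts1 behaved differently from mt-Tl1. It stood at 25.2 and 29.1 CPM in WT and at 44.0, 50.6 and 2.49 CPM in Dnmt3C KO. It stood at 1.84, 17.8 and 18.3 CPM in Nrf1 cKO and at 44.2, 0.307 and 36.0 CPM in dKO, which is a 165-fold range. Dnmt3C KO replicate 3, Nrf1 cKO replicate 1 and dKO replicate 2 were low and the other 8 libraries lay at 17.8 CPM or above, so that each mutant genotype held 1 low library and WT none. The complex I gene mt-Nd6 (chrM:13552-14070, minus strand), the only messenger RNA gene of the light strand, was lowest in the same 3 libraries. Its levels were 21.9 and 23.6 CPM in WT, 20.3, 20.4 and 9.24 CPM in Dnmt3C KO, 7.53, 16.02 and 12.1 CPM in Nrf1 cKO and 25.4, 2.49 and 23.3 CPM in dKO. Set against the plus-strand neighbour of the same library, mt-Ts1 held between 0.356 and 1.78 counts per 10000 mt-Co1 counts in the 3 low libraries and between 17.04 and 44.5 in the other 8. For mt-Nd6 the values were 13.7 to 42.4 counts per 10000 mt-Nd5 counts in the 3 libraries and 69.6 to 129 in the others.

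Both genes lie opposite abundant plus-strand transcripts: mt-Ts1 shares 3 bases and mt-Nd6 shares 14 bases with the gene on the other strand. The same libraries were therefore compared at nuclear genes that lie wholly opposite the exons of another gene, by criteria chosen after the mitochondrial values had been seen. There were 20 such pairs in which the opposite gene held over 5 counts per base and the inner gene over 50 counts and under 5% of the opposite gene's counts per base. The inner genes of these pairs held 8.75 counts per 10000 counts of the opposite genes in dKO replicate 2, 17.6 in Nrf1 cKO replicate 1 and 19.9 in Dnmt3C KO replicate 3. In the other 8 libraries they held between 27.3 and 74.5. Whether reads of the opposite strand entered the counts of mt-Ts1 and mt-Nd6, and more so in some libraries than in others, was not tested, so the ranges given for both genes are of assigned counts and need not be those of their own transcripts.

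**Figure D3:**
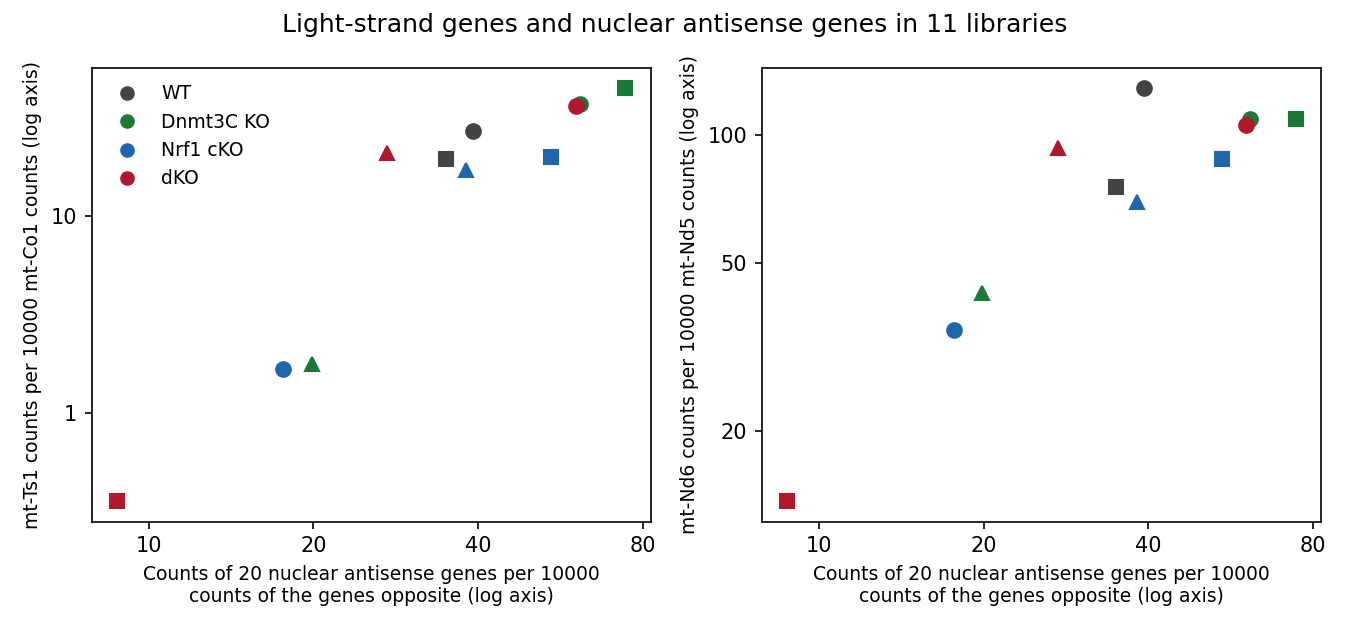
Counts of mt-Ts1 per 10000 mt-Co1 counts (left, log axis) and of mt-Nd6 per 10000 mt-Nd5 counts (right, log axis) against the counts of 20 nuclear genes per 10000 counts of the genes on the opposite strand (log axis), 1 point per library, with replicates 1, 2 and 3 as circles, squares and triangles. The libraries dKO replicate 2, Nrf1 cKO replicate 1 and Dnmt3C KO replicate 3 are lowest on every axis.

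The nuclear genome holds copies of mitochondrial DNA, and 11 annotated genes matched a mitochondrial messenger RNA gene over at least 100 bases at 95% identity or more. Of these, 7 lie side by side at chr1:24611535-24616197 on the minus strand and held 97.6% of the counts of all copies. Gm10925, Gm28661, Gm28437, Gm10222 and Gm28439 were identical over the aligned bases to mt-Atp6, mt-Co2, mt-Co3, mt-Nd4l and a stretch of mt-Nd4, so reads within them cannot be told apart by sequence. The counting mode of the deposited tables divides reads that match several places, and the division between identical genes was not equal. Gm10925 received 63.6% of the summed counts of mt-Atp6 and itself, Gm10222 received 69.3% of those of mt-Nd4l, and Gm28661 and Gm28437 received 44.0% and 38.0% of those of mt-Co2 and mt-Co3. Gm28438, 99.7% identical to mt-Nd3, received 48.8%. Gm28439 received 0.314% of those of mt-Nd4, although its 876 bases are identical to the first 876 of the 1378 bases of that gene. The cause of the unequal division was not tested. For mt-Co1, mt-Nd2 and mt-Nd5 each copy also received under 1%, while mt-Nd1, mt-Nd6, mt-Cytb and mt-Atp8 had no annotated copy of at least 100 bases. The 43 bases that mt-Atp8 shares with mt-Atp6 are part of Gm10925, so reads there match the copy as well. Nuclear sequence outside annotated transcripts was not searched.

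The split varied between libraries, most for mt-Nd3 and mt-Nd4l. Gm28438 received between 34.3% (Dnmt3C KO replicate 1) and 61.4% (dKO replicate 3) of the counts of the mt-Nd3 pair. Gm10222 received 84.2% in Nrf1 cKO replicate 3 against 63.4% in Nrf1 cKO replicate 1. With the copies added, the range of mt-Nd4l over the libraries narrowed from 3.93-fold to 2.53-fold and that of mt-Atp6 widened from 2.38-fold to 2.72-fold. Counted with its copies, the mitochondrial genome took 3.51% ± 1.40 of WT libraries (SD, n = 2). It took 3.50% ± 0.503 of Dnmt3C KO, 2.82% ± 0.235 of Nrf1 cKO and 3.46% ± 1.098 of dKO libraries (SD, n = 3 each), and the order of the genotype means was the same as without them.

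**Figure D4:**
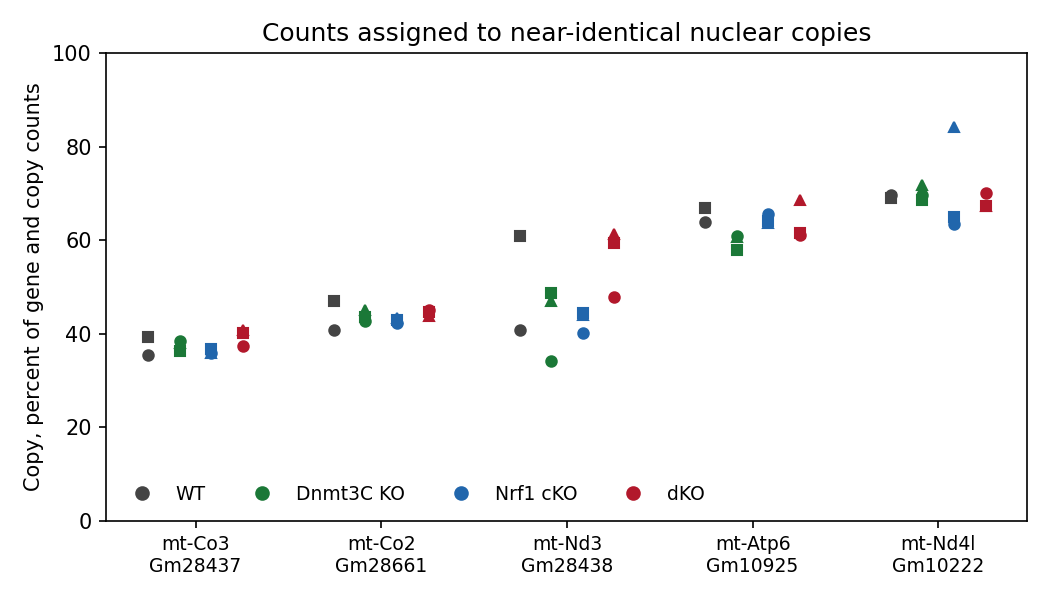
Percent of the counts of a mitochondrial gene and its nuclear copy that was assigned to the copy, for the 5 pairs in which the copy received over 5%, in the 11 libraries (genotypes in colour, replicates 1, 2 and 3 as circles, squares and triangles). The pairs mt-Nd3 with Gm28438 and mt-Nd4l with Gm10222 vary most between libraries.

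No mitochondrial gene passed an adjusted p of 0.01 in any of 8 comparisons by edgeR's quasi-likelihood test with Benjamini-Hochberg adjustment. All 13 messenger and both ribosomal RNA genes entered each of them, and between 9 and 11 of the 20 transfer RNA genes passed the filter on low counts. Across all genes and transposon subfamilies tested, 0% passed in Dnmt3C KO over WT, Nrf1 cKO over WT, dKO over WT, dKO over Nrf1 cKO, dKO over Dnmt3C KO, the average effect of Dnmt3C loss and the interaction. For Nrf1 deletion averaged over both Dnmt3C backgrounds, 0.00443% passed, which is 1 gene of 22594. That gene was Tuba3a, a tubulin gene named here after its value was seen, with a log2 fold change of -1.25 ± 0.13 (SE) and an adjusted p of 0.00647. No feature was called in this comparison with a replicate block, nor when any 1 library other than WT replicate 1 or Nrf1 cKO replicate 1 was left out (9 of 11 fits).

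At an unadjusted p under 0.05, mt-Nd6 was lower in Nrf1 cKO than in WT, against 5.75% of all features passing in either direction. By the same rule mt-Atp8 was lower in dKO than in WT and in dKO than in Nrf1 cKO, against 1.74% and 2.81% of all features, and mt-Nd3 was lower in dKO than in Dnmt3C KO, against 7.18%. No mitochondrial gene passed that rule in Dnmt3C KO over WT, the averaged Nrf1 effect, the averaged Dnmt3C effect or the interaction, where 5.41%, 8.53%, 2.92% and 5.55% of all features did. DESeq2 called no mitochondrial gene at an adjusted p of 0.01. It called 0.106% of features in Dnmt3C KO over WT, 0.129% in Nrf1 cKO over WT, 0.012% in dKO over WT, 0.0322% in dKO over Nrf1 cKO, 0.106% in dKO over Dnmt3C KO, 0.27% for the averaged Nrf1 effect, 0.108% for the averaged Dnmt3C effect and 0% for the interaction. Leaving out 1 library at a time moved 33 of the 35 log2 fold changes of mitochondrial genes described below by over 1.5 times or turned their sign, the exceptions being mt-Nd6 in Nrf1 cKO over WT and mt-Atp8 in dKO over Nrf1 cKO. The testes came from mutants and littermate controls, and which libraries share a litter is not given in the sources used here.

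In Dnmt3C KO over WT, which asks what loss of Dnmt3C alone does, the messenger RNA genes centred near 0. Their median log2 fold change was -0.04, beside 0.01 for all features tested, with 6 genes above and 7 below 0. The highest was mt-Atp6 at 0.23 ± 0.29 (SE, adjusted p = 0.98), which became 0.00 with its nuclear copy added, and the lowest mt-Nd6 at -0.44 ± 0.28 (SE, adjusted p = 0.942), which was -0.16 without Dnmt3C KO replicate 3, a library low in light-strand genes. The ribosomal genes mt-Rnr1 and mt-Rnr2 had log2 fold changes of 0.18 ± 0.24 and -0.03 ± 0.34 (SE, adjusted p = 0.981 and 0.999). The median rested on which WT library was kept: it was -0.42 without WT replicate 1 and 0.50 without WT replicate 2.

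In Nrf1 cKO over WT, the comparison for Nrf1 deletion in germ cells with 1 intact copy left in somatic cells, 12 of the 13 messenger RNA genes had a negative fold change and none passed the test. The median was -0.29, beside 0.00 for all features. It was -0.67 without WT replicate 1 and 0.23 without WT replicate 2, so its direction rested on the WT library with the high mitochondrial share. The lowest gene was mt-Nd6 at -0.90 ± 0.28 (SE, unadjusted p = 0.00987 and adjusted p = 0.827 by edgeR). In CPM both WT libraries lay above all Nrf1 cKO libraries for this gene. Per 10000 mt-Nd5 counts it stood at 129 and 75.6 in WT replicates 1 and 2. By that ratio it stood at 34.6, 87.95 and 69.6 in Nrf1 cKO replicates 1 to 3, so the groups overlapped. The log2 fold change of mt-Nd6 was -0.66 without Nrf1 cKO replicate 1. The nuclear antisense genes described above held 17.6, 54.5 and 38.1 counts per 10000 opposite counts in Nrf1 cKO replicates 1 to 3 and 39.2 and 34.9 in WT replicates 1 and 2, so that replicate 1 lay below both WT libraries, replicate 2 above both and replicate 3 between them. The highest was mt-Nd3 at 0.01 ± 0.25 (SE, adjusted p = 0.998), which became -0.33 with its nuclear copy added. The log2 fold changes of mt-Rnr1 and mt-Rnr2 were -0.05 ± 0.23 and -0.01 ± 0.31 (SE, adjusted p = 0.996 for both). The transfer RNA gene mt-Ts1 had a log2 fold change of -1.07 ± 0.64 (SE, adjusted p = 0.943), which was -0.56 without Nrf1 cKO replicate 1.

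In dKO over WT, which joins both losses, the median was -0.01 beside 0.01 for all features, and it ran from -0.40 without WT replicate 1 to 0.48 without WT replicate 2. It was -0.39 without dKO replicate 3. The lowest gene was mt-Atp8 at -1.24 ± 0.54 (SE, unadjusted p = 0.0444 and adjusted p = 1 by edgeR), which was 0.49 without WT replicate 2, the library with the highest mt-Atp8 level. The highest was mt-Cytb at 0.13 ± 0.32 (SE, adjusted p = 1). The genes mt-Rnr1 and mt-Rnr2 had log2 fold changes of -0.16 ± 0.30 and -0.37 ± 0.37 (SE, adjusted p = 1 for both), and mt-Ts1 of 0.01 ± 1.04 (SE, adjusted p = 1).

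In dKO over Nrf1 cKO, which asks what Dnmt3C loss adds where Nrf1 is deleted, 11 messenger RNA genes lay above 0 and 2 below, with a median of 0.28 beside -0.01 for all features. The median was -0.01 without dKO replicate 3, the library with the highest mitochondrial share. The highest gene was mt-Nd4l at 0.64 ± 0.36 (SE, adjusted p = 1), a gene whose copy Gm10222 received most of the counts of the pair. It was 0.28 without dKO replicate 3 and 0.35 without Nrf1 cKO replicate 3. The lowest was mt-Atp8 at -0.82 ± 0.29 (SE, unadjusted p = 0.0193 and adjusted p = 1 by edgeR). For mt-Atp8 the groups overlapped, since Nrf1 cKO replicate 3 at 51.4 CPM lay within the dKO range of 39.6 to 64.6 CPM. The genes mt-Rnr1 and mt-Rnr2 had values of -0.11 ± 0.23 and -0.36 ± 0.30 (SE, adjusted p = 1 for both).

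In dKO over Dnmt3C KO, which asks what Nrf1 deletion adds where Dnmt3C is lost, the median was -0.03 beside 0.02 for all features. Its sign rested on single libraries, since it was 0.19 without dKO replicate 2 and 0.08 without Dnmt3C KO replicate 3. The lowest gene was mt-Atp8 at -0.85 ± 0.41 and the highest mt-Nd4l at 0.23 ± 0.27 (SE, adjusted p = 0.675 and 0.827). The value of mt-Atp8 was -0.07 without Dnmt3C KO replicate 3, and that of mt-Nd4l was -0.12 without dKO replicate 3. The gene mt-Nd3, a small complex I subunit, had a log2 fold change of -0.70 ± 0.27 (SE, unadjusted p = 0.0282 and adjusted p = 0.675 by edgeR). Its levels were 118, 85.6 and 116 CPM in Dnmt3C KO and 74.3, 35.5 and 83.6 CPM in dKO, so the groups did not overlap. With the counts of its copy Gm28438 added they were 179, 167 and 219 CPM against 143, 87.6 and 216 CPM, the groups overlapped and the log2 fold change was -0.31 (adjusted p = 0.769). The genes mt-Rnr1 and mt-Rnr2 had log2 fold changes of -0.34 ± 0.25 and -0.34 ± 0.32 (SE, adjusted p = 0.729 and 0.789).

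Averaged over both Dnmt3C backgrounds, Nrf1 deletion gave negative fold changes for all 13 messenger RNA genes, none of which passed the test, with a median of -0.17 beside 0.00 for all features. The values ran from mt-Atp8 at -0.63 ± 0.41 to mt-Nd5 at -0.04 ± 0.17 (SE, adjusted p = 0.683 and 0.954), and mt-Rnr1 and mt-Rnr2 stood at -0.19 ± 0.19 and -0.17 ± 0.27 (SE, adjusted p = 0.783 and 0.867). The median was 0.10 without WT replicate 2, and mt-Atp8 was 0.23 without that library. Dnmt3C loss averaged over both Nrf1 backgrounds gave a median of 0.15, from mt-Atp8 at -0.61 ± 0.41 to mt-Atp6 at 0.26 ± 0.23 (0.16 with its copy added), with mt-Rnr1 at 0.03 ± 0.19 and mt-Rnr2 at -0.20 ± 0.26 (SE, adjusted p = 1 for all 4). This median was -0.09 without dKO replicate 3, -0.02 without WT replicate 1 and 0.38 without WT replicate 2. The interaction, the difference between the effect of Nrf1 deletion with and without Dnmt3C, had a median of 0.26, which was -0.23 without WT replicate 2 and 0.01 without dKO replicate 3. Its lowest gene was mt-Nd3 at -0.71 ± 0.43 and its highest mt-Nd6 at 0.95 ± 0.86 (SE, adjusted p = 0.905 and 0.928). With its nuclear copy added mt-Nd3 was at 0.02, while mt-Rnr1 and mt-Rnr2 stood at -0.29 ± 0.38 and -0.32 ± 0.53 (SE, adjusted p = 0.939 and 0.953). The comparisons share libraries, so their values are not independent of each other.

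**Figure D5:**
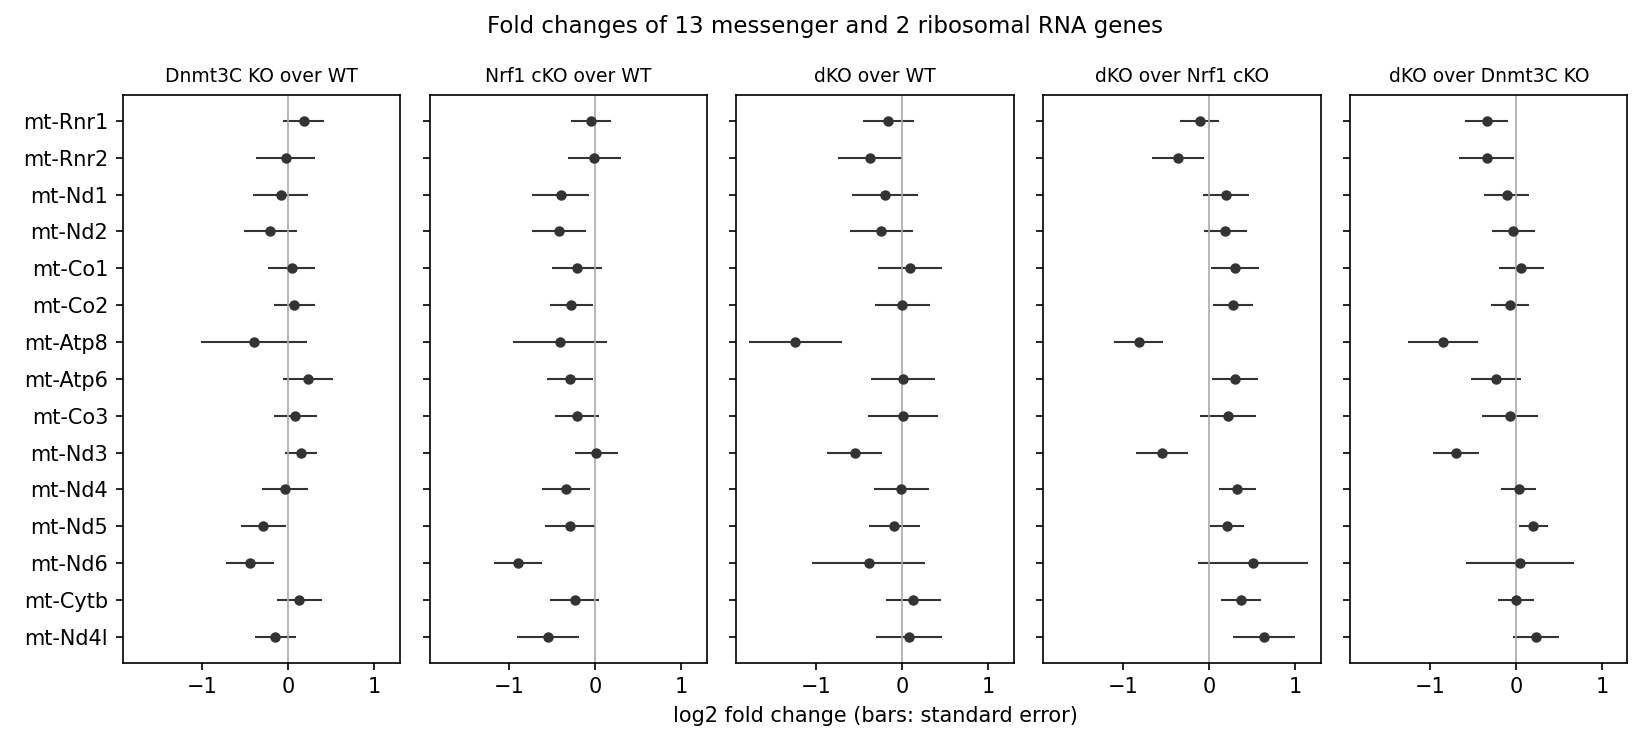
The log2 fold changes of the 2 ribosomal and 13 messenger RNA genes in the 5 pairwise comparisons, with bars for the standard error from edgeR. Most genes lie close together within a comparison, and mt-Atp8, mt-Nd3, mt-Nd4l and mt-Nd6 stand furthest from the rest.

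The nuclear genes that serve the mitochondrial genome were described as 2 lists. The 17 genes of mitochondrial transcription and DNA maintenance summed to between 392 and 463 CPM, a 1.18-fold range, and the 24 genes of mitochondrial RNA processing, polyadenylation and decay to between 966 and 1080 CPM. None of either list passed the test in any of the 8 comparisons. In Nrf1 cKO over WT the first list had a median log2 fold change of -0.06, with 5 genes above and 12 below 0, from Mterf1b at -0.70 ± 0.49 to Polrmt, the mitochondrial RNA polymerase, at 0.18 ± 0.21 (SE, adjusted p = 0.957 and 0.986). In the same comparison the second list had a median of -0.08, with 7 above and 17 below 0. Tfam, the protein that packages mitochondrial DNA and starts its transcription, stood between 48.4 and 58.3 CPM in all libraries, with a log2 fold change of 0.07 ± 0.09 for the averaged Nrf1 effect (SE, adjusted p = 0.845).

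The nuclear subunits of the complexes that also hold mitochondrially encoded subunits, 71 genes, summed to between 7795 and 10560 CPM. The sums were 8054 and 9879 CPM in WT replicates 1 and 2, and 10400, 10560 and 10070 CPM in Dnmt3C KO. WT replicate 2 lay closer to the Dnmt3C KO libraries than to WT replicate 1. In dKO the sums were 9785, 7795 and 8507 CPM. All 71 genes were read in the same libraries, so counts of these genes are not independent results. In Dnmt3C KO over WT, 70 of the 71 lay above 0 with a median log2 fold change of 0.24, and in dKO over Dnmt3C KO 69 lay below 0 with a median of -0.29, while none passed the test. At an unadjusted p under 0.05 the counts were 10 and 34 of 71, against 5.41% and 7.18% of all features. They were 0 in Nrf1 cKO over WT and 1 in dKO over WT, against 5.75% and 1.74%. For the averaged Nrf1 effect and the interaction they were 4 and 5, against 8.53% and 5.55%. In dKO over Nrf1 cKO and for the averaged Dnmt3C effect they were 0. The gene furthest out in dKO over Dnmt3C KO was Ndufa11, an accessory subunit of complex I, at -0.56 ± 0.16 (SE, adjusted p = 0.675). In the same comparison the 13 mitochondrial messenger RNA genes had the median of -0.03 given above. In Nrf1 cKO over WT the nuclear subunits had a median of 0.03, with 47 above and 24 below 0, beside 1 of 13 mitochondrial messenger RNA genes above 0. For the averaged Nrf1 effect their median was -0.12, with 57 of 71 below 0 beside all 13 mitochondrial messenger RNA genes. For the interaction it was -0.32, with 70 of 71 below 0, beside the median of 0.26 for the mitochondrial messenger RNA genes.

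The tissue markers of germ, Sertoli, Leydig, peritubular, endothelial and macrophage cells and of red blood cells were all detected, and none was at 0 in every library. The summed level of 28 germ cell markers was 799 and 612 CPM in WT, 620 to 1101 CPM in Dnmt3C KO, 266 to 455 CPM in Nrf1 cKO and 315 to 660 CPM in dKO. Ddx4, a germ cell RNA helicase, stood at 67.9 and 60.6 CPM in WT and at 38.2, 17.2 and 19.6 CPM in Nrf1 cKO. Germ cell marker levels were thus lower in every Nrf1 cKO library than in every WT and Dnmt3C KO library, and the part of the cell mixture, including the sums that follow, in the mitochondrial levels was not tested. The summed level of 7 red blood cell markers reached 2154 CPM in WT replicate 2 and 1743 CPM in Nrf1 cKO replicate 2, against 260 to 812 CPM in the others. The summed level of 7 macrophage markers was 149 and 175 CPM in WT, 204 to 217 CPM in Dnmt3C KO, 147, 205 and 201 CPM in Nrf1 cKO and 145, 90.1 and 230 CPM in dKO, so that the dKO libraries with the lowest and highest mitochondrial share were also lowest and highest of the series here. Leydig cell markers, 10 in all, summed to 1277 and 1697 CPM in WT, 1575, 1554 and 1913 CPM in Dnmt3C KO, 2211, 2012 and 1188 CPM in Nrf1 cKO and 1594, 1113 and 1763 CPM in dKO. Within WT, Dnmt3C KO and dKO these Leydig sums had the same order as the mitochondrial share, and within Nrf1 cKO they did not. Endothelial cell markers, 6 in all, summed to 428 and 405 CPM in Nrf1 cKO replicates 1 and 2, which were among the 4 libraries high in mt-Atp8, against 247 to 319 CPM in the others, which include the other 2 of those 4. Peritubular cell markers, 7 in all, summed to values between 1611 and 2771 CPM. The summed level of 14 Sertoli cell markers was 8916 CPM in Nrf1 cKO replicate 3, against 5062 to 6683 CPM in the others. The summed level of 12 immediate early and stress genes was 383 and 307 CPM in WT, 331 to 391 CPM in Dnmt3C KO, 386 to 408 CPM in Nrf1 cKO and 317 to 443 CPM in dKO.

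Among 10852 genes outside the mitochondrial genome with a mean of at least 10 CPM, those most like the summed mitochondrial messenger RNA genes over the 11 libraries, by Pearson's r of log2 CPM, were Gm28661 (r = 0.97), Zfp260 (0.96), Gm37240 (0.94), Tmem167 (0.94) and Gm28437 (0.92). Gm28661 and Gm28437 are the copies of mt-Co2 and mt-Co3 described above and share their reads. The genes most opposed were Vps26b (r = -0.96), Pex14 (-0.94), Lpin3 (-0.94), Zfp777 (-0.93) and Klhdc3 (-0.93). With 11 libraries and so many genes, values of this size are a description of these libraries, and both sides share the library total as a divisor. Among the 13 messenger RNA genes, the correlation with mt-Co1 ran from 0.45 for mt-Nd3 and 0.47 for mt-Atp8 and mt-Nd6 to 0.96 for mt-Co2.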

How the data were processed

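The 6 pairwise tables of raw read counts per gene and transposon subfamily used here were deposited by the authors. The authors aligned paired-end reads of stranded poly-A libraries to GRCm38 with STAR 2.7.3a and counted them with TEtranscripts in a mode that divides multi-mapping reads (GENCODE M25). The tables' columns of fold changes and p-values, the authors' own DESeq2 1.44.0 comparisons, were not used, nor was a table of TPM values. Counts were joined over 11 libraries (33188 genes and 1088 transposon subfamilies, none differing between tables) and given as CPM of the library total. Columns were matched to samples by the library names in the sample descriptions. Replicates are numbered by the sample titles, so replicate 3 of Dnmt3C KO and of dKO are the columns numbered 4 and 5. One replicate of each genotype had been left out by the authors for RNA quality.

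Tests used edgeR 4.0.16 in R 4.3.3 (filterByExpr, TMM, glmQLFit and glmQLFTest) on the 2 genotypes compared, or on all 11 libraries for averages and the interaction, with Benjamini-Hochberg adjustment over all features and an adjusted p under 0.01. The SE is the log2 fold change divided by the root of F. On simulated counts with 200 genes changed by 2 on the log2 scale, the fit for dKO over Nrf1 cKO (20367 features) recovered 87.5%, that for Nrf1 cKO over WT (21275 features) 86.5% and that for the interaction (22612 features) 71.5%. Of the features called in these fits, 1.69%, 3.35% and 5.3% had not been changed. Smaller changes were not simulated, so the recovery of fold changes of the size described here is not known. No 2 libraries of a genotype agreed within sampling noise (chi-square per degree of freedom from 17.6 to 61.8). Nuclear copies were found by aligning the mitochondrial genes to GENCODE M21 transcripts with BLAST+ 2.17.0. Alternatives were another scaling, DESeq2 1.42.0, no filter, scaling without the mitochondrial genes or over genes only, a replicate block, 1 fit over all genotypes, an adjusted p under 0.05 and leaving out each library. The members, lists and tests were chosen with earlier results of these data known. By the rule for naming, the messenger RNA genes with the lowest and highest fold change, mt-Rnr1 and mt-Rnr2 were given in each comparison, and Tuba3a, mt-Ts1 and mt-Nd3 were named after their values were seen.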

Additional observations from a re-analysis of the deposited data

How the results depend on the processing

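The WT libraries, n = 2 and unlike in mitochondrial share, limited every comparison with WT. Without 1 library at a time, the median log2 fold change of the 13 messenger RNA genes ran from -0.42 to 0.50 in Dnmt3C KO over WT, from -0.67 to 0.23 in Nrf1 cKO over WT, from -0.40 to 0.48 in dKO over WT and from -0.23 to 0.58 for the interaction; where 1 WT library remained, it was assumed to vary like the other groups. Leaving out 1 library called no mitochondrial gene in any comparison, and the other alternatives kept all 61 medians within the spread between libraries (0.35 on the log2 scale). That spread is larger than the size of every median, so a median could turn in sign and still be counted as kept. The mean share of Nrf1 cKO was 2.82% with the copies added, an alternative chosen after seeing the data.

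With a replicate block, 1 mitochondrial gene was called in Nrf1 cKO over WT and 1 in dKO over WT, among 87 and 21 calls over all features, where the fits without a block called 0. It was mt-Ts1 both times, at -2.07 (adjusted p = 4.44e-09) and at -2.13 (adjusted p = 0.00516), against 0.01 for dKO over WT without the block; the block leaves replicate 3 of the mutants without a WT partner. With the block mt-Rnr2 was 0.05 in Dnmt3C KO over WT and 0.24 in Nrf1 cKO over WT, and mt-Rnr1 0.08 in Nrf1 cKO over WT. The numbers are those of the sample titles, while the count columns number replicate 3 of Dnmt3C KO as 4 and of dKO as 5. Equal numbers did not pair the libraries: deviations from the genotype mean correlated at -0.233 to 0.221 for equal numbers and at -0.258 to 0.299 for unequal ones. The median with the block was -0.10 in Dnmt3C KO over WT, -0.18 in Nrf1 cKO over WT, -0.32 in dKO over WT, 0.21 in dKO over Nrf1 cKO and -0.11 in dKO over Dnmt3C KO. The cause of these changes was not tested.

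Small fold changes turned in sign. In Nrf1 cKO over WT, mt-Nd3 was -0.01 when scaled to genes only and -0.33 with its copy added, and mt-Rnr2 was 0.01 by DESeq2. For the interaction mt-Nd3 was 0.02 with its copy added. Without 1 library at a time, log2 fold changes ran as follows. In Dnmt3C KO over WT, mt-Atp6 ran from -0.16 to 0.81, mt-Rnr1 from -0.11 to 0.57 and mt-Rnr2 from -0.46 to 0.60. In Nrf1 cKO over WT, mt-Nd3 ran from -0.22 to 0.30, mt-Rnr1 from -0.33 to 0.32 and mt-Rnr2 from -0.43 to 0.60. In dKO over WT, mt-Atp8 ran from -2.01 to 0.49, mt-Cytb from -0.22 to 0.59, mt-Rnr1 from -0.46 to 0.22, mt-Rnr2 from -0.81 to 0.25 and mt-Ts1 from -0.51 to 0.59. In dKO over Nrf1 cKO, mt-Rnr1 ran from -0.33 to 0.14. In dKO over Dnmt3C KO, mt-Nd4l ran from -0.12 to 0.51 and mt-Rnr2 from -0.67 to 0.03. For the averaged Nrf1 effect, mt-Atp8 ran from -1.01 to 0.23, mt-Nd5 from -0.24 to 0.23, mt-Rnr2 from -0.39 to 0.13 and Tfam from -0.01 to 0.15. For the averaged Dnmt3C effect, mt-Atp8 ran from -1.0 to 0.26, mt-Rnr1 from -0.11 to 0.22 and mt-Rnr2 from -0.41 to 0.12. For the interaction, mt-Rnr2 ran from -0.96 to 0.09.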
